A study of Mus musculus with 6 samples.

Results

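The heat shock proteins and DnaJ chaperones were taken as all genes whose symbol starts with Hsp followed by a letter from a to h or a digit, or with Dnaja, Dnajb or Dnajc followed by a digit. Hspg2, which encodes a matrix proteoglycan, was left out. This rule gave 71 of the 16619 genes in the table. They were 11 members of the HSP70 family, 3 of the HSP110 family, 3 of the HSP90 family, 2 mitochondrial chaperonin genes, 6 small heat shock proteins, 4 DNAJA, 11 DNAJB and 25 DNAJC co-chaperones, 2 HSP binding proteins and 4 pseudogenes or retrotransposed copies. The rule used symbols only and no expression value.

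RNA-seq was performed on eWAT, white fat of the abdominal cavity, from female mice 6 months old, with 3 WT and 3 Prmt5AKO libraries. Both groups carry Prmt5 flox/flox. Prmt5AKO mice also carry Adipoq-Cre, and so lack the arginine methyltransferase PRMT5 in adipocytes. The other cell types of the depot keep the gene, and their RNA is in each library. The labels call the tissue epididymal and do not say that each library came from a separate mouse, so the p-values measure the spread between these libraries only, which may be technical. Fewer cells of a type and less RNA per cell cannot be told apart in such bulk tissue.

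Heat shock proteins are molecular chaperones that keep other proteins folded, and many are known for their induction by heat and other stress through the transcription factor HSF1. HSP70 proteins bind unfolded stretches of a client in cycles of ATP hydrolysis. J-domain proteins (DNAJA, DNAJB and DNAJC) bring the client and start hydrolysis, and HSP110 proteins exchange the nucleotide. HSP90 acts on near-native clients such as kinases and steroid receptors, the HSP60/HSP10 chaperonin folds proteins inside mitochondria, and small heat shock proteins hold clients without ATP. In white fat, adipocytes make and secrete large amounts of protein through the endoplasmic reticulum (ER), which has its own HSP70, HSP90 and J-domain proteins.

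Promoters of members that are known targets of HSF1 or of the ER stress response are shown first, because the expression values below are read by these groups. The RefSeq promoter windows (GRCm38.p6, 250 bases before to 50 bases after a start site) held 55 of the 71 members in 72 windows. A heat shock element of 3 units, searched on both strands as GAANNTTCNNGAA or TTCNNGAANNTTC, was found in 6 of these 72 windows (8.33%) and in 198 of all 32851 windows (0.603%). Those windows belonged to 4 members, Dnajb6, Hspd1, Hspe1 and Hsph1. Its shorter form of 2 units, GAANNTTC or TTCNNGAA, each of which also lies within every 3-unit match, was found in 22.2% of member windows and 15.1% of all windows. The ER stress element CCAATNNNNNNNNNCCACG was found for 3 members, Hspa5, Hsp90b1 and Dnajc3, all of the ER, and in 0.119% of all windows. A match is a description of the sequence and not a bound site. Dnaja1, listed below as heat-inducible, was printed because its values were lower in Prmt5AKO. Of its 3 windows, the one with the start site closest to the gene start in GENCODE M21 is printed, 318 bases from it. In the windows printed here, 5′ to 3′ on the gene's strand, capitals mark the heat shock element of 2 or 3 units, or the ER stress element for Hspa5.
Hspa1b, the stress-inducible HSP70, minus strand, chr17:34959189-34959488: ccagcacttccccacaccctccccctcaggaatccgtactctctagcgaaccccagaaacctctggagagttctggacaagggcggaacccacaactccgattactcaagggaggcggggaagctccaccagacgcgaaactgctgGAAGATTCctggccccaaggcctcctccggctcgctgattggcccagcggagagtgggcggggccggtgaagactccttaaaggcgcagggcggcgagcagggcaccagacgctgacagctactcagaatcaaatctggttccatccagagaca
Hspa1a, its near-identical copy, minus strand, chr17:34972107-34972406: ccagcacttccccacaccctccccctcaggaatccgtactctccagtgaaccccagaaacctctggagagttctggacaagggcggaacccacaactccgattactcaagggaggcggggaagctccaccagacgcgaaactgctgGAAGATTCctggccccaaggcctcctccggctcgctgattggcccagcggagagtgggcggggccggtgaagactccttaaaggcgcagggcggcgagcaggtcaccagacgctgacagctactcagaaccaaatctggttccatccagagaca
Hspe1, mitochondrial HSP10, plus strand, chr1:55087898-55088197: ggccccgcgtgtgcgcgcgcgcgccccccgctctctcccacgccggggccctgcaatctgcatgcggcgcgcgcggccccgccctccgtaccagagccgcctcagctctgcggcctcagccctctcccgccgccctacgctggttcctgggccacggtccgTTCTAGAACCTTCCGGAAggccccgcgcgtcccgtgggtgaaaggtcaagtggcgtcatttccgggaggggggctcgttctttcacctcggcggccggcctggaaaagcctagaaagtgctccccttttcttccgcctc
Hsph1, HSP110, minus strand, chr5:149636287-149636586: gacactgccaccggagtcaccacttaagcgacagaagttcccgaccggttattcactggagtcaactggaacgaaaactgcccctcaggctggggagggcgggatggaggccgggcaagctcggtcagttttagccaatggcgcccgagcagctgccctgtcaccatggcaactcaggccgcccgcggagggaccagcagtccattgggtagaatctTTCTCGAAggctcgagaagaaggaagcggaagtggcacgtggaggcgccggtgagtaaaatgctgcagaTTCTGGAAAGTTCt
Hspa5, the HSP70 of the ER known as BiP, plus strand, chr2:34771840-34772139: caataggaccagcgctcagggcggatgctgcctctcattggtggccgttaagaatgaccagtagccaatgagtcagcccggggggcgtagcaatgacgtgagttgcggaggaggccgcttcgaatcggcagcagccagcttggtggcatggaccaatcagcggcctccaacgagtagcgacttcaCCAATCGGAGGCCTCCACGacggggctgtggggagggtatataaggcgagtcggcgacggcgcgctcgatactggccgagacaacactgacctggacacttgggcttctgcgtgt
Dnaja1, the main cytosolic DNAJA partner of HSP70, plus strand, chr4:40722218-40722517: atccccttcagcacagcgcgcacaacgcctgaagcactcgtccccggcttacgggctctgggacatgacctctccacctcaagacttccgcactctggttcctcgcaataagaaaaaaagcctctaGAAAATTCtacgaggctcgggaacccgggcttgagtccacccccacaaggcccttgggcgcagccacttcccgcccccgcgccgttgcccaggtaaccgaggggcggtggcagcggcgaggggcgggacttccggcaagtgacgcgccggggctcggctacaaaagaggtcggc

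Between the windows of Hspa1a and Hspa1b, 4 of 300 bases differed. Counted from the 5′ end of the window, with the base of Hspa1a first, these were C44T, T47C, T249G and C276T, none of them inside the marked element. The Hspe1 window covers the region from which Hspe1 and Hspd1 are transcribed away from each other on chromosome 1, and a window of Hspd1 on the opposite strand held the same heat shock element.

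The recovered reads summed to between 18731215 (Prmt5AKO replicate 1) and 27445096 (WT replicate 3), and members took 0.595% to 0.685% of the reads of WT libraries and 0.513% to 0.651% of those of Prmt5AKO libraries. Prmt5 itself was at 36.6, 59.7 and 39.7 CPM (counts per 1e6 reads of the effective library size, as deposited) in WT and at 14.6, 22.0 and 28.5 CPM in Prmt5AKO, with no overlap (exact two-sided permutation p = 0.1, the smallest possible with 3 against 3). All 14 adipocyte markers were detected, with a summed level of 70967 to 78639 CPM in WT and 54747 to 67986 CPM in Prmt5AKO. Along the first principal component (64.5% of the variance), Prmt5AKO replicate 1 (-53.3) lay with WT replicates 1 (-74.6) and 3 (-40.2), apart from Prmt5AKO replicates 2 (61) and 3 (81) and WT replicate 2 (26.1). Results that change without Prmt5AKO replicate 1 are therefore given both ways.

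None of the 71 members passed the test of genotype. All 71 were kept by the filter, a level of 0.5 CPM or more in 3 or more libraries. The limma fit on log2(CPM + 0.5) called 0 of them (adjusted p under 0.05, with a log2 fold change of more than 0.5 either way), as it called 0 of all 16109 genes kept (0%). With edgeR's quasi-likelihood test on the recovered reads, 0 members were called, and with DESeq2 also 0. Of all the tools run, members were called by edgeR's likelihood ratio test alone, and there in the fit blocked on replicate numbers, 2 of 71 (Dnajb13 and Hspd1-ps4), beside 4.23% of all genes kept. At an unadjusted p under 0.05 stood 4 members (5.63%), beside 8.72% of all genes kept. The median log2 fold change, Prmt5AKO over WT on that scale, was -0.05 over the members and -0.03 over all genes kept, and 34 members had a positive and 37 a negative value. For 27 members the 95% confidence interval of the log2 fold change lay between -1 and 1, so a change of 2-fold or more lay outside it, and for the other members it did not exclude such a change. As the plot of fold changes by role shows, the members with the largest values were co-chaperones and a pseudogene, not the abundant heat shock proteins.

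**Figure D1:**
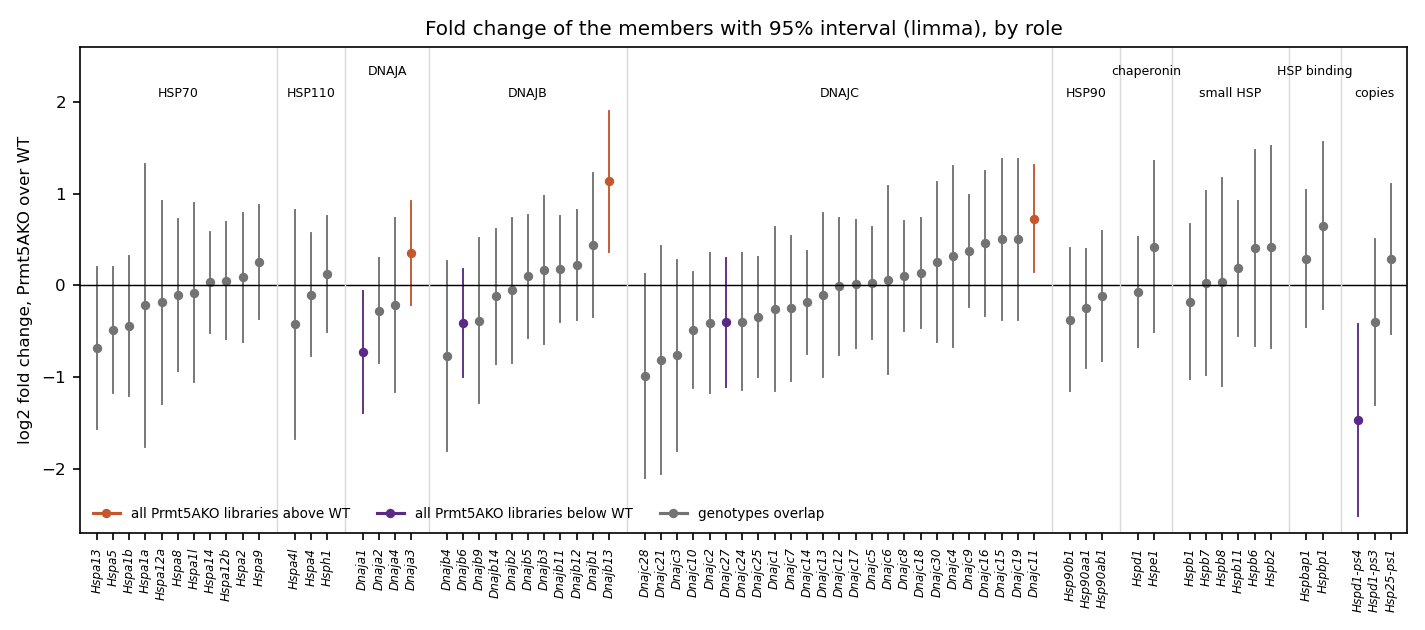
Log2 fold change of 70 of the 71 members, Prmt5AKO over WT (vertical axis), with its 95% confidence interval from limma, grouped by role along the horizontal axis. Orange members have all 3 Prmt5AKO libraries above the 3 WT libraries (Dnaja3, Dnajb13, Dnajc11), purple ones all below (Dnaja1, Dnajb6, Dnajc27, Hspd1-ps4), and no member passed the adjusted test.

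Per kb of exon, the most abundant members were chaperones of the cytosol and the mitochondria. Hsp90ab1, the constitutive HSP90, was highest, at 229 to 329.6 CPM per kb over the 6 libraries. Hspa8, the constitutive HSP70 also called HSC70, came next at 158 to 277 CPM per kb. Hspb1 (HSP27) followed at 85.0 to 198 CPM per kb and Hspe1 (HSP10) at 72.0 to 208 CPM per kb. These 4 neighbours in the order overlapped in their library values, Hsp90ab1 with Hspa8 and Hspb1 with Hspe1, so that order is one of means only. Next came Hspd1, the HSP60 subunit of the chaperonin, and Hspa9 (mortalin), the HSP70 that pulls proteins into the mitochondrial matrix, whose means of 95.45 and 95.02 CPM per kb did not differ beyond their spread. By CPM, without regard to length, the 6 highest members were Hspa8, Hsp90ab1, Hspa9, Hspa5, Hspd1 and Hsp90b1. This set, with Hspa5 and Hsp90b1 of the ER, made up 48.4% of the summed member level. At the other end, 5 members had a mean under 2 CPM, among them Hspa1l, an HSP70 of the testis, at 0.43 CPM.

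**Figure D2:**
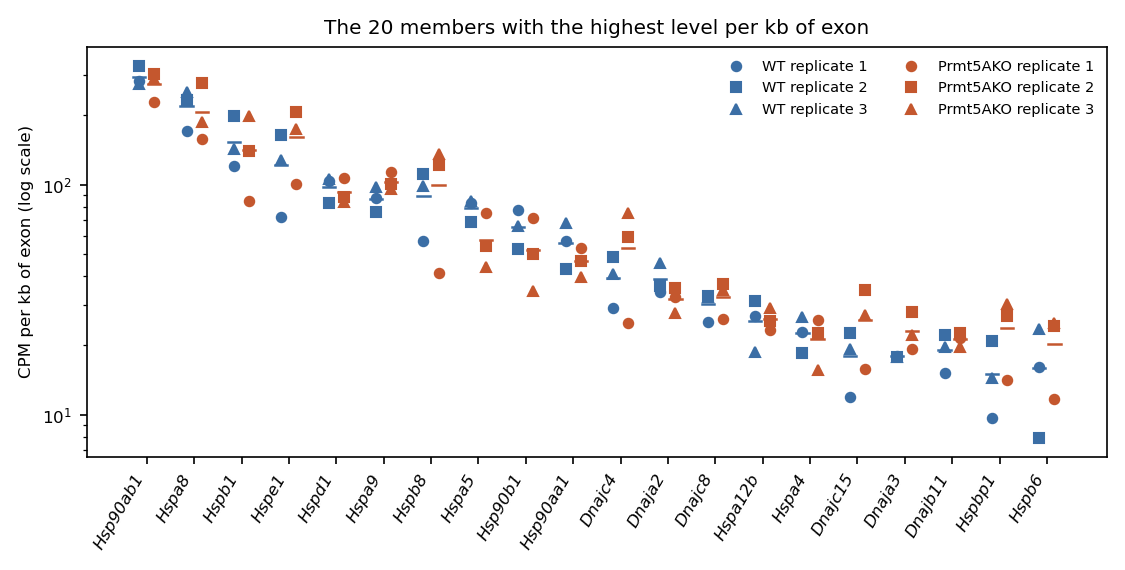
Level in CPM per kb of exon (vertical axis, log scale) of the 20 members with the highest mean, ordered by it. Each point is 1 library, blue for WT and orange for Prmt5AKO, the symbol gives the replicate number and the short lines give the mean of 3 libraries. Hsp90ab1 and Hspa8 stand at the top, and the genotypes overlap for each member shown except Dnaja3.

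Among the HSP70 proteins, 0 of 11 had an unadjusted p under 0.05, with 4 positive and 7 negative log2 fold changes and a median of -0.10. Hspa8 was at 736, 1005 and 1087 CPM in WT and at 681, 1192 and 803 CPM in Prmt5AKO. The genotypes overlapped fully, at 943 ± 184 CPM (SD, n = 3) in WT and 892 ± 267 CPM in Prmt5AKO, and the interval of the log2 fold change ran from -0.93 to 0.73. Hspa9 was at 375, 327 and 421 CPM in WT and 489, 432 and 413 CPM in Prmt5AKO, where only Prmt5AKO replicate 3 fell within the WT range (log2 fold change 0.25, SE 0.27, limma adjusted p = 0.687). Hspa14, which with DNAJC2 works on chains leaving the ribosome, was the steadiest member, with a highest library 1.198 times its lowest.

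The stress-inducible HSP70 genes had low values in every library, as counted from uniquely mapped reads. Hspa1b was at 18.1, 12.6 and 21.5 CPM in WT and at 9.56, 15.96 and 12.5 CPM in Prmt5AKO, and Hspa1a was at 4.27, 2.04 and 10.6 CPM in WT and 1.48, 5.04 and 7.32 CPM in Prmt5AKO. Both genes overlapped between the genotypes, with log2 fold changes of -0.44 (SE 0.33, limma adjusted p = 0.623) and -0.22 (SE 0.67, limma adjusted p = 0.884). They are near-identical copies about which uniquely mapped reads say little, and the ratio of Hspa1b to Hspa1a moved between 1.70 and 6.44 over the libraries, so the split between them is uncertain. Reads that fit both copies equally well were not kept, so the level of each, and of both together, may be understated. In addition, 19.0% of the exon bases of Hspa1a lie on the exons of an annotated gene on the opposite strand.

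Most ER members had lower values in Prmt5AKO, none past the test. Of 13 members of the ER, 9 had a negative log2 fold change, with a median of -0.35 beside -0.03 over all genes kept, and 0 had an unadjusted p under 0.05. Hspa5, which holds new chains in the ER lumen and restrains the stress sensors there, was at 351, 292 and 360 CPM in WT and at 317, 228 and 185 CPM in Prmt5AKO, where replicate 1 lay inside the WT range and the other libraries lay below it (log2 fold change -0.49, SE 0.30, limma adjusted p = 0.61). Hsp90b1 (GRP94), the HSP90 of the ER, was at 312, 212 and 267 CPM in WT and 289, 201 and 140 CPM in Prmt5AKO. Dnajc3 (p58IPK), the J-domain partner of BiP that was first named as an inhibitor of the kinase PKR, was at 125, 62.1 and 125 CPM in WT and 104, 54.1 and 34.9 CPM in Prmt5AKO. WT replicate 2 lay far below the other WT libraries for Dnajc3, so the genotypes overlapped.

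Other J-domain proteins of the ER showed both signs. Dnajc10 (ERdj5), a disulfide reductase, was at 68.2, 49.4 and 66.2 CPM in WT and 50.8, 46.1 and 34.2 CPM in Prmt5AKO (log2 fold change -0.49, SE 0.27, limma adjusted p = 0.601). Dnajb9 (ERdj4), a target of the unfolded protein response, was at 48.7, 42.6 and 59.1 CPM in WT and 61.0, 41.7 and 21.4 CPM in Prmt5AKO, so its lowest and its highest value both came from Prmt5AKO. Dnajb11 (ERdj3) was at 49.2, 71.6 and 63.8 CPM in WT and 69.6, 73.2 and 63.7 CPM in Prmt5AKO. Hspa13, a microsomal HSP70 relative, had a log2 fold change of -0.68 (SE 0.38, limma adjusted p = 0.601). Without Prmt5AKO replicate 1, the log2 fold change of Hspa5 was -0.69, that of Hsp90b1 was -0.64 and that of Hspa13 was -0.97, with limma adjusted p-values of 0.109, 0.155 and 0.0964. Without Prmt5AKO replicate 3 the same values were -0.30, -0.11 and -0.45.

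The partners of these ER chaperones outside the symbol rule had mostly the opposite sign, none past the test. Of 14 other ER folding factors kept, 11 had a positive log2 fold change, with a median of 0.29, and 0 had an unadjusted p under 0.05. The smallest p belonged to Hyou1, the HSP110-like exchange factor of BiP, at 71.9, 81.0 and 63.2 CPM in WT and at 81.9, 127 and 121 CPM in Prmt5AKO (log2 fold change 0.59, limma adjusted p = 0.583). Sdf2, a subunit of an ER quality control complex, had a log2 fold change of 0.70 and Sec63, a J-domain protein of the translocon, one of -0.59, neither past the test.

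HSP90 and HSP110 members had small values. All 3 HSP90 genes had a negative log2 fold change, from -0.37 to -0.12, and their summed level was 1369 ± 17.1 CPM (SD, n = 3) in WT and 1213 ± 73.5 CPM in Prmt5AKO. Each of the Prmt5AKO sums (1185, 1296 and 1157 CPM) lay below each of the WT sums (1386, 1369 and 1352 CPM). The same held for the DNAJA sums, at 314, 321 and 258 CPM in Prmt5AKO and 340, 331 and 434 CPM in WT. It also held for the pseudogenes and copies, and for no other role. Of single genes kept, 6.28% lay below in this way, a share over genes and not over sums. The DNAJA sum holds Dnaja1 and the sum of copies holds Hspd1-ps4, whose genotypes did not overlap by themselves. No test and no other scaling was run on these sums. Effective size was 1.15 times the total reads in Prmt5AKO replicate 1 and 0.974 times in WT replicate 2. The separation of the sums may therefore depend on the scaling. Hsp90ab1 was at 851, 989 and 819 CPM in WT and 688, 912 and 861 CPM in Prmt5AKO. Hsp90aa1, its heat-inducible counterpart, was at 224, 169 and 266 CPM in WT and 207, 183 and 156 CPM in Prmt5AKO. For each HSP90 gene the genotypes overlapped, and the ratio of Hsp90ab1 to Hsp90aa1 ranged from 3.07 in WT replicate 3 to 5.87 in WT replicate 2. Of the HSP110 genes, Hsph1 (HSP105) was at 24.8, 27.3 and 38.6 CPM in WT and 29.8, 37.2 and 30.6 CPM in Prmt5AKO, Hspa4 (APG-2) had a log2 fold change of -0.10 and Hspa4l (APG-1) one of -0.42 (SE 0.54).

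Co-chaperones and the heat shock factors beside them were taken from a list of 25 genes, of which 24 were kept. Of these, 9 had a positive and 15 a negative log2 fold change, with a median of -0.08 beside -0.03 over all genes kept, and 1 had an unadjusted p under 0.05. That gene was Fkbp5, an immunophilin that binds HSP90 and is known as a glucocorticoid target, at 101, 83.8 and 117 CPM in WT and 42.0, 45.7 and 65.9 CPM in Prmt5AKO, with no overlap (log2 fold change -0.98, SE 0.28, limma adjusted p = 0.383). Stip1, the HSP70 to HSP90 organising protein HOP, was at 72.2, 128 and 88.8 CPM in WT and 105, 202 and 206 CPM in Prmt5AKO (log2 fold change 0.80, SE 0.36, limma adjusted p = 0.58). Unc45a, a co-chaperone of HSP90 for myosin, had a log2 fold change of 0.77 (limma adjusted p = 0.581). The CCT chaperonin and its partner prefoldin, which fold actin and tubulin, had 15 genes kept, of which 0 had an unadjusted p under 0.05, with a median log2 fold change of 0.10.

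The 13 members listed as heat-inducible through HSF1 included the constitutive Hspa8 and Hsp90ab1, both with negative log2 fold changes. The others were Dnaja1, Dnajb1, Hsp90aa1, Hspa1a, Hspa1b, Hspa4l, Hspb1, Hspb8, Hspd1, Hspe1 and Hsph1. Of the 13, 4 had a positive and 9 a negative log2 fold change. The median was -0.12, the value of Hsp90ab1 itself, and 1 member had an unadjusted p under 0.05. That member was Dnaja1 (HDJ2), on chr4:40722150-40737149 of GRCm38, plus strand, at 157, 149 and 219 CPM in WT and at 134, 99.5 and 84.3 CPM in Prmt5AKO. The 3 Prmt5AKO libraries lay below the 3 WT libraries, at 106 ± 25.2 CPM (SD, n = 3) against 175 ± 38.3 CPM, with a log2 fold change of -0.73 (SE 0.29, limma unadjusted p = 0.0353, adjusted p = 0.535). Of its exon bases, 7.05% lie on exons of Smu1 on the opposite strand. All Prmt5AKO libraries lay below all WT libraries for 4 members, Dnaja1, Dnajb6, Dnajc27 and Hspd1-ps4, and 6.28% of all genes kept did so. Among the other heat-inducible members, Dnajb1 (HSP40), the J-domain partner of the inducible HSP70, was at 33.4, 47.5 and 39.7 CPM in WT and at 33.7, 69.7 and 67.1 CPM in Prmt5AKO, so Prmt5AKO replicate 1 alone lay inside the WT range. Its log2 fold change of 0.44 had the sign opposite to that of Dnaja1. The immediate early genes that respond to tissue handling, such as Fos, had 17 genes kept and a summed level of 614 to 829 CPM in WT and 469 to 737 CPM in Prmt5AKO. Of the 17, 5 had a positive and 12 a negative log2 fold change, with a median of -0.41 beside -0.03 over all genes kept. An unadjusted p under 0.05 was reached by 3 (17.65%, beside 8.72% of all genes kept). For 3 all Prmt5AKO libraries lay below WT, and for 0 above. The part of tissue handling in the members' values was not tested.

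**Figure D3:**
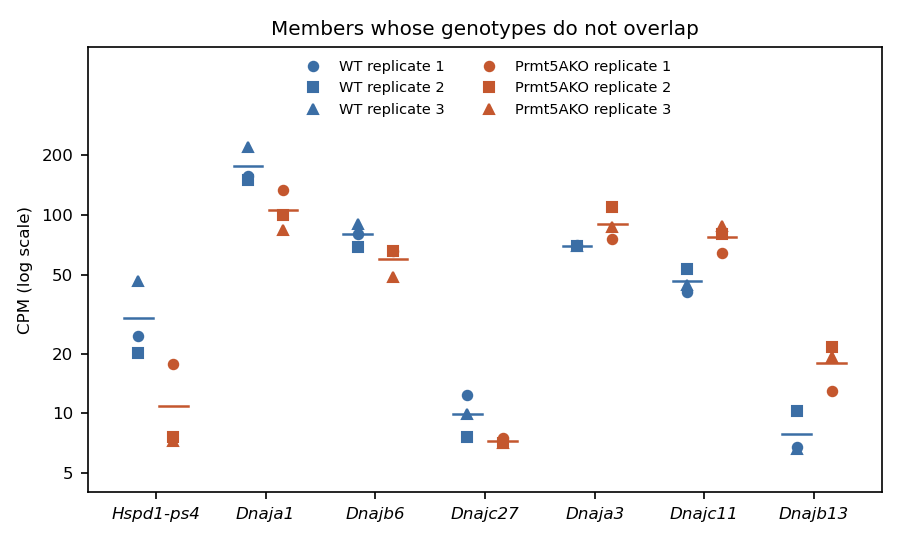
CPM (vertical axis, log scale) of the 7 members for which the 3 Prmt5AKO libraries (orange) all lie on 1 side of the 3 WT libraries (blue), ordered by log2 fold change. Symbols give the replicate number and short lines the means. Dnaja1 goes from 175 to 106 CPM and Dnajb13 from 7.90 to 18.0 CPM in the mean of 3 libraries.

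Apart from Dnaja1 and Dnajb13, the J-domain proteins of the A and B classes did not reach an unadjusted p under 0.05. Dnaja2, the constitutive partner of HSC70, was at 102, 108 and 135 CPM in WT and 96.7, 105 and 82.4 CPM in Prmt5AKO. Dnajb6, which is known for keeping polyglutamine proteins and desmin in solution, was at 80.2, 68.9 and 90.1 CPM in WT and at 66.01, 65.99 and 48.6 CPM in Prmt5AKO (log2 fold change -0.41, SE 0.26, limma adjusted p = 0.61). Its lowest WT library and its highest Prmt5AKO library were 68.9 and 66.01 CPM, a gap smaller than the spread within either genotype. Dnajb4, a relative of Dnajb1, was at 58.8, 29.1 and 73.9 CPM in WT and 49.1, 24.9 and 20.3 CPM in Prmt5AKO, with overlap (log2 fold change -0.77, SE 0.45, limma adjusted p = 0.603). Dnajc27 (RBJ), a small GTPase with a J domain, was at 12.3, 7.61 and 9.89 CPM in WT and 7.56, 7.09 and 7.13 CPM in Prmt5AKO. The gap between its genotypes was 7.61 against 7.56 CPM, so the absence of overlap rests on WT replicate 2 lying just above Prmt5AKO replicate 1.

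Dnajb13 had the largest positive log2 fold change of the 71 members. It lies on chr7:100501716-100514960 of GRCm38, minus strand, and encodes a J-domain protein of the radial spokes of motile cilia and sperm tails. It was at 6.74, 10.3 and 6.62 CPM in WT and at 13.04, 21.7 and 19.3 CPM in Prmt5AKO. All Prmt5AKO libraries lay above all WT libraries, as for 3 members in all (Dnajb13, Dnajc11 and Dnaja3) and 8.16% of all genes kept, and the means were 7.90 ± 2.11 and 18.0 ± 4.46 CPM (SD, n = 3). The log2 fold change was 1.14 (SE 0.33, 95% interval 0.37 to 1.91, limma unadjusted p = 0.00926, adjusted p = 0.405).

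Dnajb13 met its neighbour Ucp2, which encodes a mitochondrial carrier, tail to tail. Of its exon bases, 305 (11.2%) lie on exons of Ucp2 on the opposite strand, and the sources used here do not state that reads were counted by strand. Ucp2 was at 249, 529 and 326 CPM in WT and at 339, 581 and 789 CPM in Prmt5AKO, and the level of Dnajb13 was 2.704%, 1.95% and 2.03% of that of Ucp2 in WT and 3.84%, 3.73% and 2.44% in Prmt5AKO. That percentage overlapped between the genotypes, since Prmt5AKO replicate 3 (2.44%) lay below WT replicate 1 (2.704%). The part of Ucp2 reads in the level of Dnajb13 was not tested.

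Markers of motile ciliated cells were mostly absent. Of 24 markers, 10 were in the table, and the ciliary transcription factor Foxj1 and the dynein genes Dnah5, Dnah9, Dnai1 and Dnai2 were not among them. The summed level of the 10 was 85.1 to 140 CPM in WT and 77.1 to 214 CPM in Prmt5AKO, of which Tppp3, a tubulin-binding protein, gave most (68.9 to 125 CPM in WT and 52.3 to 194 CPM in Prmt5AKO). Of the 9 kept, 5 had a positive and 4 a negative log2 fold change, from -0.76 (Ccdc39) to 2.83, with a median of 0.17. The highest was that of Hydin, which encodes a protein of the central pair of the axoneme. Hydin was at 0.43, 0.19 and 0.68 CPM in WT and 5.798, 8.43 and 4.34 CPM in Prmt5AKO, with no overlap (limma unadjusted p = 7.07e-05, adjusted p = 0.106). Tekt2 did not overlap either, at 2.22, 3.37 and 2.42 CPM in WT and 3.99, 3.97 and 4.30 CPM in Prmt5AKO (limma adjusted p = 0.602). These were 2 of the 9 kept with all Prmt5AKO libraries above WT, beside 8.16% of all genes kept, and 0 of the 9 lay below. Hydin passed the filter through its Prmt5AKO libraries, since in WT only replicate 3 reached 0.5 CPM. Its place among the 9 is thus tied to its direction, so the count is a description and not a test. Over the 6 libraries the member most like Dnajb13 in log2(CPM + 0.5) was Dnajc11 (Pearson r = 0.98), ahead of Dnaja3 (0.86) and Hspbp1 (0.85). For Dnajb13, Dnajc11 and Dnaja3 alike, all Prmt5AKO libraries lay above WT. A high r across both genotypes is therefore partly built in, and these values are a description only.

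Most mitochondrial members had higher values in Prmt5AKO, none past the adjusted test. Of 9 members of the mitochondria, 7 had a positive log2 fold change, with a median of 0.35 beside -0.03 over all genes kept, and 1 had an unadjusted p under 0.05. That member was Dnajc11, an outer membrane protein bound to the MICOS complex that shapes cristae, on chr4:151933691-151982137, plus strand. Its WT libraries were at 41.0, 53.4 and 44.5 CPM and its Prmt5AKO libraries at 63.9, 79.6 and 87.9 CPM. The genotypes did not overlap, at 46.3 ± 6.37 and 77.2 ± 12.2 CPM (SD, n = 3), with a log2 fold change of 0.73 (SE 0.25, limma unadjusted p = 0.0206, adjusted p = 0.483). Dnaja3 (TID1), the matrix partner of mortalin, was at 70.4, 69.8 and 69.9 CPM in WT and 75.2, 109 and 86.8 CPM in Prmt5AKO (log2 fold change 0.35, SE 0.25, limma adjusted p = 0.613). The WT libraries of Dnaja3 differed by less than 1 CPM, and the spread of its Prmt5AKO libraries was wider than the gap between the genotypes.

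The J-domain proteins of the import motor had the same order of libraries. Dnajc15 and Dnajc19 (TIM14), which sit at the inner membrane translocase, were at 77.4, 147 and 126 CPM and at 37.9, 72.3 and 57.6 CPM in WT. In Prmt5AKO they were at 103, 227 and 176 CPM and at 47.3, 104 and 92.1 CPM. For both, replicate 1 was the lowest library of its genotype and Prmt5AKO replicates 2 and 3 stood above every WT library. A list of 12 mitochondrial chaperone partners outside the symbol rule was not limited to the import motor and also held protease genes. Of these 12, 8 had a positive log2 fold change, with a median of 0.28, and 2 had an unadjusted p under 0.05. Those 2 were Timm44, the scaffold of the import motor (0.58, limma adjusted p = 0.516), and Afg3l2, a subunit of an inner membrane protease (0.62, limma adjusted p = 0.561). Grpel1, the nucleotide exchange factor of mortalin, was at 90.7, 180.3 and 140 CPM in WT and 125, 335 and 299.9 CPM in Prmt5AKO. The 13 protein-coding genes encoded in mitochondrial DNA had the opposite sign, with 13 negative log2 fold changes and a median of -0.70, and their summed level was lowest in Prmt5AKO replicates 2 and 3.

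The chaperonin genes Hspd1 and Hspe1 gave unlike profiles although they sit head to head at the promoter printed above. Hspd1 was steady, at 275, 220.2 and 281 CPM in WT and 282, 234 and 221 CPM in Prmt5AKO, with a highest library 1.28 times the lowest. Hspe1 was at 106, 242 and 188 CPM in WT and 148, 306 and 257 CPM in Prmt5AKO, a range of 2.88 times. The ratio of Hspe1 to Hspd1 was 0.387, 1.099 and 0.670 in WT and 0.526, 1.31 and 1.159 in Prmt5AKO, so replicate 1 was lowest in both genotypes. Neither gene passed the test, with log2 fold changes of -0.07 (SE 0.26, 95% interval -0.67 to 0.53) for Hspd1 and 0.42 (SE 0.40, 95% interval -0.51 to 1.35) for Hspe1. Their exons share 112 bases on opposite strands.

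**Figure D4:**
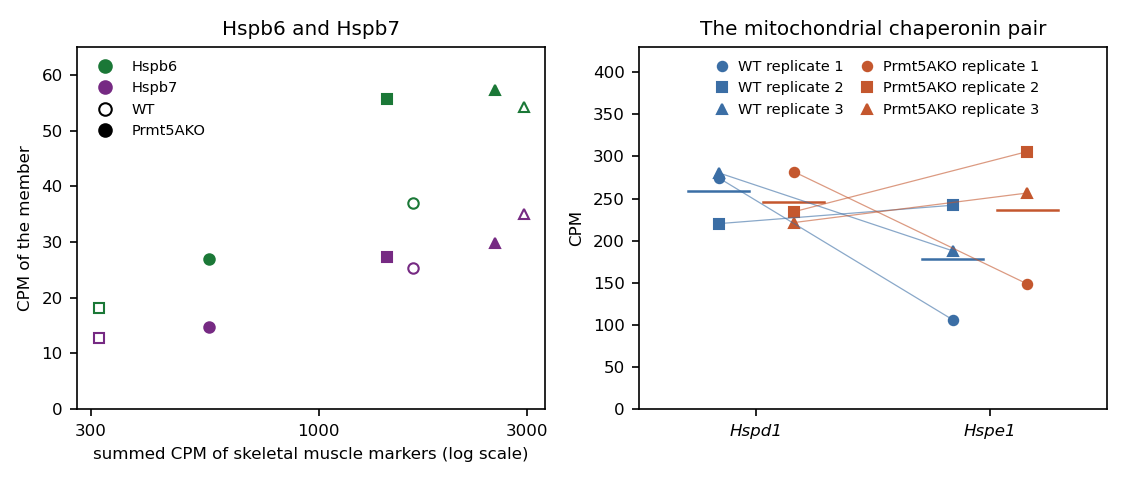
Left, CPM of Hspb6 (green) and Hspb7 (purple) in each library against the summed CPM of the skeletal muscle markers (log scale), with open symbols for WT and filled ones for Prmt5AKO. Right, CPM of Hspd1 and Hspe1 in each library, with thin lines joining the values of 1 library and short lines giving the means. Hspb6 and Hspb7 are lowest in WT replicate 2, where the muscle markers sum to 313 CPM, and the lines from Hspd1 to Hspe1 go down in WT replicates 1 and 3 and in Prmt5AKO replicate 1 and up in the others.

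Small heat shock proteins had the highest median standard error of the roles, 0.45 beside 0.34 over all members. Their summed level was 307, 467 and 443 CPM in WT and 219, 485 and 573 CPM in Prmt5AKO. Hspb1, an actin-linked holdase, was at 125, 204 and 148 CPM in WT and 87.6, 145 and 204 CPM in Prmt5AKO. Hspb8 (HSP22), the partner of BAG3 in selective autophagy, was at 111, 218 and 193 CPM in WT and 80.4, 237 and 265 CPM in Prmt5AKO. For both genes the lowest library was Prmt5AKO replicate 1, and the 95% intervals of the log2 fold change, -1.02 to 0.67 and -1.10 to 1.18, covered 0 widely.

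The muscle forms of the family varied widely between libraries, as did the muscle markers. Hspb6 (HSP20), known in smooth and striated muscle, was at 37.0, 18.1 and 54.2 CPM in WT and 26.9, 55.6 and 57.3 CPM in Prmt5AKO, and Hspb7, the cardiovascular form, was at 25.3, 12.8 and 35.0 CPM in WT and 14.8, 27.4 and 29.8 CPM in Prmt5AKO. The 14 skeletal muscle markers in the table, of 16 listed, summed to 1642, 313 and 2947 CPM in WT and 560, 1436 and 2526 CPM in Prmt5AKO, with Xirp2 and Myh4 at 0 in at least 1 library. For that sum as for Hspb7, WT replicate 2 was lowest, Prmt5AKO replicate 1 next and WT replicate 3 highest, and across the 6 libraries Pearson r between the log2 levels was 0.98 for Hspb7 and 0.94 for Hspb6, as a description of points that share depth and library. Acta1, the skeletal actin, and Des, which smooth muscle also expresses, made up 41.55% to 97.25% of the sum. The other 12 markers summed to 853, 8.59 and 1722 CPM in WT and 117, 97.5 and 726 CPM in Prmt5AKO, so they were about as low in Prmt5AKO replicate 2 as in replicate 1, whereas Hspb6 and Hspb7 were higher in replicate 2. Pearson r with these 12 was 0.84 for Hspb7 and 0.76 for Hspb6. The 12 smooth muscle and pericyte markers summed to 1023 to 1789 CPM in WT and 1636 to 3094 CPM in Prmt5AKO. The part of muscle tissue in the levels of Hspb6 and Hspb7 was not tested.

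Hspb2, the muscle form encoded head to head with Cryab, was at 3.16, 5.15 and 4.91 CPM in WT and 2.74, 9.63 and 7.60 CPM in Prmt5AKO. Its neighbour Cryab, the small heat shock protein alpha-B-crystallin that falls outside the symbol rule, was at 113, 199 and 199.6 CPM in WT and 98.9, 271 and 305 CPM in Prmt5AKO. Of the exon bases of Hspb2, 30.2% lie on exons of Cryab on the opposite strand, and the level of Hspb2 was 2.46% to 3.55% of that of Cryab in every library, so the level of Hspb2 is uncertain. Hspb11, an intraflagellar transport subunit despite its name, was at 5.76 to 8.29 CPM in WT and 6.77 to 9.90 CPM in Prmt5AKO. The HSP binding proteins, both with positive values, included Hspbp1, a nucleotide exchange factor of HSP70, at 18.4, 39.4 and 27.2 CPM in WT and 26.8, 50.5 and 57.5 CPM in Prmt5AKO (log2 fold change 0.65, SE 0.40, limma adjusted p = 0.608).

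Pseudogenes and copies of members carried the largest negative value. Hspd1-ps4 is a processed pseudogene of Hspd1 on chr4:106136111-106137778 of GRCm38, minus strand, whose nearest annotated gene lies 17029 bases away. It was at 24.7, 20.1 and 46.2 CPM in WT and at 17.8, 7.58 and 7.22 CPM in Prmt5AKO. The genotypes did not overlap, with a log2 fold change of -1.47 (SE 0.45, 95% interval -2.51 to -0.42, limma unadjusted p = 0.0118, adjusted p = 0.426). Its level was 8.99%, 9.14% and 16.5% of that of Hspd1 in WT and 6.32%, 3.24% and 3.26% in Prmt5AKO. Since reads of Hspd1 may be placed on this copy, or the reverse, its level is uncertain. Across the 6 libraries its closest member was Dnaja1 (Pearson r = 0.99), ahead of Hspa5 (0.92) and Dnajc25 (0.92). For both Hspd1-ps4 and Dnaja1 all Prmt5AKO libraries lay below WT, so a high r across the genotypes is partly built in. The copies Hspd1-ps3 and Hsp25-ps1 had means of at most 1.71 CPM in either genotype.

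The remaining DNAJC proteins spread on both sides of 0. Of these, Dnajc30 shares 26.2% of its exon bases with Bud23 on the opposite strand, as Dnaja4 shares 44.1% with Wdr61, so the levels of both are uncertain. The lowest was Dnajc28, a mitochondrial J-domain protein, at 14.7, 7.42 and 15.0 CPM in WT and 10.7, 5.26 and 3.21 CPM in Prmt5AKO (log2 fold change -0.99, SE 0.48, limma adjusted p = 0.596), followed by Dnajc21, a ribosome maturation factor, at -0.82. Dnajc4, at 36.1, 60.1 and 50.5 CPM in WT and 31.2, 73.4 and 92.9 CPM in Prmt5AKO, held both the lowest and the highest value in Prmt5AKO. Dnajc8, a splicing factor, was at 64.4, 83.9 and 83.1 CPM in WT and 66.2, 94.7 and 89.0 CPM in Prmt5AKO. Of 7 members linked to the ribosome, splicing or the nucleus, 3 had a positive and 4 a negative log2 fold change. Of 4 members of vesicles and endocytosis, 2 were on each side, among them Dnajc5, the cysteine string protein, at 70.9 to 111 CPM in Prmt5AKO and 85.3 to 99.9 CPM in WT.

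For most members, as for most genes kept, the range of libraries within each genotype exceeded the difference between the genotype means. A range and a difference of means are unlike measures, so this comparison is a description only. For 57 of 71 members (80.3%) the range of log2(CPM + 0.5) within WT and the range within Prmt5AKO both exceeded the absolute log2 fold change, as they did for 70.98% of all genes kept. The median range was 0.63 in WT and 0.77 in Prmt5AKO, beside a median absolute log2 fold change of 0.27. Prmt5AKO replicate 1 lay more than 1.5-fold above both other Prmt5AKO libraries for 13 members (18.3%), and below both for 15 (21.1%), beside 26.7% and 21.2% of all genes kept. The 13 members above, among them Dnajb4, Dnajc3, Dnajc13, Dnajc21 and Hspa13, had a median exon length of 6510 bases, and the 15 members below, among them Hspe1, Dnajc15, Dnajc19 and 5 of the 6 small heat shock proteins, had one of 1950 bases. Over all genes kept, the medians were 5984 and 2436 bases. Nuclear-retained RNAs such as Malat1 and Neat1 summed to 3136, 899 and 2241 CPM in WT and 3130, 237 and 239 CPM in Prmt5AKO, and their relation to these members was not tested.

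**Figure D5:**
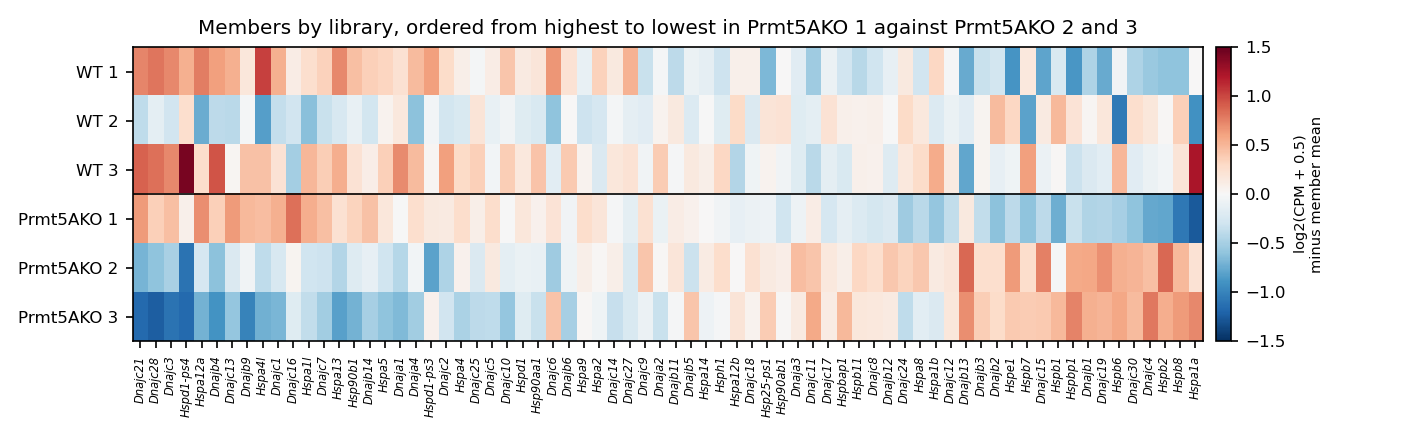
Deviation of 70 of the 71 members, each from its own mean of log2(CPM + 0.5) (colour, red above and blue below) in each of the 6 libraries (rows). Members are ordered along the horizontal axis from those highest to those lowest in Prmt5AKO replicate 1 against Prmt5AKO replicates 2 and 3, so that order is built in, while the WT libraries were not used for it. WT replicates 1 and 3 are mostly red at the left end and WT replicate 1 is mostly blue at the right end.

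Without Prmt5AKO replicate 1, limma called 84 of the 16109 genes kept and 0 of the 71 members. The number of members with an unadjusted p under 0.05 then went from 4 to 16, which is 22.5% of members beside 35.3% of all genes kept, and the added members included Hspa5, Hspb2, Hspbp1, Dnajb1, Dnajb4, Dnajc3, Dnajc15, Dnajc19 and Hspa13. Without WT replicate 2, 8 members (11.3%) stood at an unadjusted p under 0.05, beside 12.4% of all genes kept. Without WT replicate 3 only Dnajb13 did (1.41% beside 3.98%), and without WT replicate 1, Prmt5AKO replicate 2 or Prmt5AKO replicate 3, Dnajb13 and Hspd1-ps4 did (2.82% beside 4.56% to 4.81%).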

How the data were processed

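RNA was enriched by poly-A selection, and per the paper's methods and the labels the authors trimmed the reads (Trim Galore 0.6.0), aligned them to GRCm38 (STAR 2.7.10a), kept uniquely mapped pairs and counted them per gene (featureCounts, Subread 2.0.1). Uniquely mapped reads and overlapping exons limit what near-identical or overlapping members can show. Counting by strand is not given in the sources used here. A batch correction is mentioned in the paper, without the batch. With edgeR, and at the cutoffs used below, the paper reports genes changed in both directions, Prmt5 among them. The limma fit here called 0 genes and missed Prmt5 itself (log2 fold change -1.06, limma adjusted p = 0.436). Here, edgeR's likelihood ratio test blocked on replicate numbers called 682 genes, 353 higher and 329 lower in Prmt5AKO. Prmt5 was among them (adjusted p = 0.0366 in that test).

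Each library has a deposited signal column with counts scaled to its effective size (CPM), so the totals of the columns differ. Plain CPM had been assumed in the design, whose log-scale test was kept. In every library 100% of values were whole multiples of 1 read within 0.05 of a read, and reads recovered this way served the count-based alternatives. The authors' deposited fold changes, p-values and enrichment tables were not used.

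The 16109 genes that reached 0.5 CPM in 3 or more libraries were kept, and genotypes were compared by limma 3.58.1 (lmFit, eBayes with trend) on log2(CPM + 0.5), adjusted by Benjamini-Hochberg over all genes kept. Calls needed an adjusted p under 0.05 with a log2 fold change of more than 0.5 either way. This scale understates changes of low genes. Positions and exon lengths came from GENCODE M21 and promoters from RefSeq (GRCm38.p6).

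Named in each role were members called, members of at least 1 CPM whose genotypes do not overlap, the 3 with the smallest p and the 2 highest per kb. From each list described, the 3 genes with the smallest p could be named. Other members, and Tppp3, Grpel1, Cryab and Ucp2, were chosen after their values were seen. The values of 1 member are not reported here. The members and gene lists were chosen with earlier results of these data known.

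Alternatives were pseudocounts of 0.1 and 2 CPM, no filter or one at 2 CPM, other scalings, no fold cutoff, robust eBayes, the replicate number as a block, limma-voom, edgeR 4.0.16, DESeq2 1.42.0 and each library left out. The fit was also run on simulated counts with 200 genes changed. The simulation gave every gene the same dispersion and held no differences between libraries beyond size and genotype. It therefore cannot show the power of the fit on the real libraries. Software was R 4.3.3 and Python 3.11.15 with pandas 2.3.3, numpy 2.4.6, matplotlib 3.10.9 and scipy 1.17.1.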

Additional observations from a re-analysis of the deposited data

How the results depend on the processing

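With 3 libraries per genotype, the median standard error of the members' log2 fold changes was 0.34, and the 95% intervals of 27 of 71 members excluded a 2-fold change. Under limma with a changed pseudocount, filter, scaling, fold cutoff or eBayes, limma-voom and edgeR's quasi-likelihood test, 0 members and 0 genes were called. Over all genes kept, limma with the replicate block called 129, edgeR's likelihood ratio test 162, the likelihood ratio test with the replicate block 682 (4.23%), the quasi-likelihood test with the replicate block 53 and DESeq2 301. Members were called only by the likelihood ratio test with the replicate block, 2 of 71: Dnajb13 (1.19, adjusted p = 0.0306) and Hspd1-ps4 (-1.51, adjusted p = 0.0273). With that test Prmt5 was also called (-1.08, adjusted p = 0.0366). The replicate numbers were not taken as pairs, since the deviations of same-numbered libraries correlated at 0.68, 0.57 and -0.11, and replicate 3 did not correlate best with its own number. Leaving out 1 library in turn gave 0 to 84 called genes and 0 called members, the 84 being without Prmt5AKO replicate 1.

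Plain library totals moved the median of all genes to -0.08 and turned the sign of Hspb8 to -0.0211. When 1 library was left out, 26 of 71 members (36.6%) turned sign in at least 1 case, beside 29.8% of all genes kept. With all libraries, their log2 fold changes were at most 0.41 in size. Of the 26, 10 were named by the rule, with log2 fold changes of -0.72 to 0.0212 (Dnajb9), -0.0204 to 0.26 (Dnajc8), -0.20 to 0.0052 (Hsp90ab1), -0.26 to 0.11 (Hspa4), -0.33 to 0.0737 (Hspa8), -0.46 to 0.15 (Hspb1), -0.0223 to 0.76 (Hspb6), -0.28 to 0.58 (Hspb8), -0.18 to 0.000601 (Hspd1) and -0.00165 to 0.31 (Hsph1). Among the other 16 were Hspa1a (-0.72 to 0.36), Hspa12a (-0.60 to 0.15), Hspb7 (-0.37 to 0.34) and Dnajb14 (-0.37 to 0.10). The cause was not tested. With a filter at 2 CPM, 66 of 71 members remained in the test.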
